A study of Mus musculus with 9 samples.

Results

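The mouse mitochondrial genome is a circle of 16299 bases, and every gene whose symbol starts with mt- was taken from the deposited RNA-seq table. The table listed 16 such genes of 19769 in all, and the other 19753 were nuclear. The GENCODE annotation of the same build places 37 genes on this genome, 13 for mRNAs, 22 for tRNAs and 2 for rRNAs. All 13 mRNAs and both rRNAs were in the table, but only 1 tRNA, mt-Ts1, was listed, and the other 21 tRNAs are not analysed here.

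The RNA came from primary mouse embryonic fibroblasts (MEFs) of Myc-Egfp+/+ mice, in which both Myc alleles encode a MYC-GFP fusion protein. All cells were given 20 µM of the proteasome inhibitor MG-132 for 6 h, sorted by GFP into low-MYC and high-MYC cells, and left in culture overnight before RNA was extracted. Each group was measured in 2 libraries that were technical replicates, 4 libraries in all, so that p-values compare these libraries and not independent cultures. RNA spike-ins were added in proportion to the number of cells, which makes a value a level per cell, and libraries were made from poly(A) RNA.

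Both strands of the mitochondrial genome are transcribed into long precursors, from which the tRNAs are cut out and the mRNAs and rRNAs between them are released. The mRNAs encode core subunits of the respiratory complexes I, III and IV and of the ATP synthase (complex V), and the rRNAs and tRNAs serve the translation of these mRNAs inside the organelle. Most mitochondrial mRNAs carry short poly(A) tails, whereas mitochondrial rRNAs have only very short tails and tRNAs end in CCA. Poly(A) selection therefore does not recover the 3 classes alike, and it may not recover all mRNAs alike.

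The tails also complete some of the mRNAs. The last 30 bases of 3 mRNAs are shown on the plus strand of mm10, because each of these genes ends in a single T, in capitals, which polyadenylation is known to extend to a UAA stop codon. They lie at chrM:9361-9390, chrM:11515-11544 and chrM:15259-15288.
mt-Co3: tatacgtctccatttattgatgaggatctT
mt-Nd4: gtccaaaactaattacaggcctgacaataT
mt-Cytb: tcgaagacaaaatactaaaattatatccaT

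Neighbouring genes also share bases, so a read can belong to more than 1 of them. In the first sequence below, from chrM:10155-10184, the capitals mark the 7 bases that mt-Nd4l and mt-Nd4 have in common. In the next, from chrM:7912-7941, the capitals mark the first 3 bases of mt-Atp6, which lies over the last 43 bases of mt-Atp8. In the last, from chrM:6857-6886, the capitals mark the 3 bases of mt-Co1 that also belong to mt-Ts1 on the minus strand.
mt-Nd4l and mt-Nd4: caacctactacaATGCTAAaaattattctt
mt-Atp8 and mt-Atp6: cccttgagaattaaaATGaacgaaaatcta
mt-Co1 and mt-Ts1: tgtaaaagtaaaaTAAgaaaggaaggaatc

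Mitochondrial genes took a large part of every library. Levels are given as normalized FPK, the fragments per kilobase of a gene divided by the spike-in score of the library. The value is per length, but levels of different genes also depend on recovery by poly(A) selection. For some genes they also depend on signal assigned to nuclear copies, as described further on. Myc, by whose product the cells were sorted, had 9.81 and 9.86 in the low-MYC and 20.3 and 20.5 in the high-MYC libraries. The 16 genes made up 12.1% and 13.2% of the summed normalized FPK in the low-MYC libraries and 11.1% and 12.6% in the high-MYC libraries. The groups overlapped, with a high-MYC mean of 11.8% ± 1.04 (SD, n = 2) and a low-MYC mean of 12.7% ± 0.828 (SD, n = 2). The difference of -0.829 percentage points had p = 0.667 by an exact two-sided permutation test. With 2 libraries a group this test cannot give a p under 0.333. When each value was multiplied by gene length, so that long genes counted for more, the share was 5.42% and 6.01% in low-MYC and 5.10% and 5.82% in high-MYC cells.

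**Figure D1:**
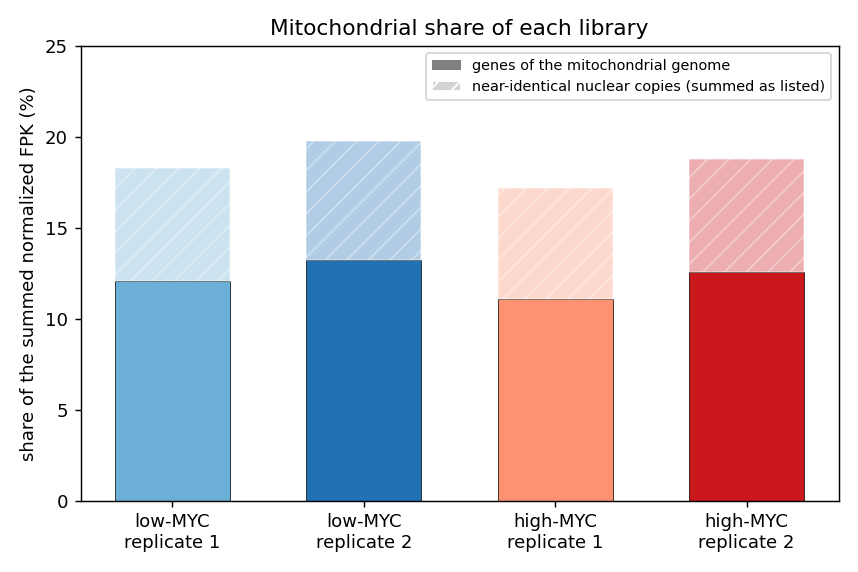
Share of the summed normalized FPK (%) in each of the 4 libraries; solid bars are the 16 mitochondrial genes and hatched bars the 7 near-identical nuclear copies described further on. The solid part was 12.1% and 13.2% in low-MYC and 11.1% and 12.6% in high-MYC libraries, and the groups overlapped.

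Per cell, nearly all mitochondrial genes were higher in high-MYC than in low-MYC cells, and so were nearly all nuclear genes. By limma with Benjamini-Hochberg adjustment over 11870 genes, called at adjusted p under 0.01, 15 of 16 mitochondrial genes rose, beside 97.1% of all genes tested. None fell, beside 0.0253% of all genes. The 15 genes had both high-MYC libraries above both low-MYC libraries, as 99.0% of all genes did, and mt-Ts1 was the exception. A rise of at least 2-fold on the log2(value + 0.1) scale was reached by 11 of 13 mRNAs and 2 of 2 rRNAs, beside 55.1% of all genes, with several mRNAs close to that limit. This count of 13 went to 5 without high-MYC replicate 2 and to 7 without low-MYC replicate 1. The rise is per cell: with the summed nuclear value set equal in all libraries, 0 of the 16 genes passed the limma test in either direction, and 1 had an unadjusted p under 0.05.

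The 7 mRNAs for complex I, the NADH dehydrogenase that takes electrons from NADH, all rose. mt-Nd1 (chrM:2751-3707) had 521 and 586 normalized FPK in low-MYC cells and 1077 and 1306 in high-MYC cells, a log2 fold change of 1.10 (SE 0.114, limma adjusted p = 1.90e-04). mt-Nd5 (chrM:11742-13565), the longest of the mRNAs with 1824 bases, had 230 and 262 against 510 and 612, and its log2 fold change of 1.19 (SE 0.111, limma adjusted p = 1.22e-04) was the highest of the 13. The high-MYC libraries were above the low-MYC libraries for both genes, and the libraries numbered 2 were above those numbered 1.

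mt-Nd4 (chrM:10167-11544) had 320 and 362 normalized FPK in low-MYC cells and 672 and 794 in high-MYC cells. mt-Nd2 (chrM:3914-4951) had 359 and 396 against 692 and 826, which with a log2 fold change of 1.00 lay at the 2-fold limit. mt-Nd3 (chrM:9459-9806) had 99.0 and 107 against 195 and 226. These genes did not overlap between the groups. mt-Nd4l (chrM:9877-10173) was, as listed, the lowest mRNA in both groups, with 82.5 and 103 in low-MYC and 171 and 203 in high-MYC cells.

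mt-Nd6 (chrM:13552-14070, minus strand) is the single mRNA encoded on the other strand and shares 14 bases with mt-Nd5. It had 173 and 195 normalized FPK in low-MYC cells and 377 and 449 in high-MYC cells, a log2 fold change of 1.16 (SE 0.106, limma adjusted p = 1.10e-04). Its level relative to mt-Nd5 was 0.752 and 0.746 in low-MYC and 0.739 and 0.734 in high-MYC libraries. Whether strand was used in counting is not given in the sources used here, so mt-Nd6 mRNA and RNA of the opposite strand over the same bases cannot be told apart.

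mt-Cytb (chrM:14145-15288) encodes cytochrome b, the mitochondrially encoded subunit of complex III. It had 558 and 656 normalized FPK in low-MYC cells and 1207 and 1410 in high-MYC cells, a log2 fold change of 1.11 (SE 0.113, limma adjusted p = 1.82e-04). Among the mRNAs it held the same place below mt-Co1 and mt-Atp8 in both groups.

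The mRNAs of complex IV, cytochrome c oxidase, also rose. mt-Co1 (chrM:5328-6872), the catalytic subunit, had 917 and 1051 normalized FPK in low-MYC cells and 2024 and 2414 in high-MYC cells, a log2 fold change of 1.17 (SE 0.114, limma adjusted p = 1.45e-04). mt-Co2 (chrM:7013-7696), which takes electrons from cytochrome c, had 305 and 356 against 598 and 768. mt-Co3 (chrM:8607-9390), a core subunit without a redox centre, had 435 and 514 against 857 and 1159. As listed, the 2 high-MYC libraries lay further apart for mt-Co2 and mt-Co3 than for most mRNAs, but stayed above both low-MYC libraries.

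The mRNAs of complex V, which are read from 1 bicistronic transcript, rose as well. mt-Atp8 (chrM:7766-7969) had 1023 and 1139 normalized FPK in low-MYC cells and 1929 and 2114 in high-MYC cells, a log2 fold change of 0.90 (SE 0.0835, limma adjusted p = 1.16e-04). mt-Atp6 (chrM:7927-8607), whose product forms part of the proton channel, had 509 and 600 against 951 and 1264, a log2 fold change of 0.99 (SE 0.156, limma adjusted p = 0.00138). Although the genes share a transcript, the level of mt-Atp8 was 2.01 and 1.90 times that of mt-Atp6 in low-MYC and 2.03 and 1.67 times in high-MYC libraries. This holds for the values as listed: with the signal of its nuclear copy Gm10925 added, as described further on, mt-Atp6 had a mean of 1968 over the 4 libraries and was above mt-Atp8 with 1551. No copy of mt-Atp8 was listed that could be added, although its bases also lie in the nuclear insertion.

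The rRNAs were far lower than most mRNAs in these poly(A) libraries. mt-Rnr2 (16S rRNA of the large ribosomal subunit, chrM:1094-2675) had 36.4 and 39.3 normalized FPK in low-MYC cells and 85.2 and 96.8 in high-MYC cells, a log2 fold change of 1.26 (SE 0.0785, limma adjusted p = 2.43e-05). mt-Rnr1 (12S rRNA of the small subunit, chrM:70-1024) had 29.1 and 32.4 against 66.9 and 75.4, a log2 fold change of 1.21 (SE 0.0820, limma adjusted p = 3.26e-05). Both groups were apart for both rRNAs, and the ratio of mt-Rnr2 to mt-Rnr1 was 1.25 and 1.22 in low-MYC and 1.27 and 1.28 in high-MYC libraries.

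The tRNA was barely detected. mt-Ts1 (serine tRNA, chrM:6870-6938, minus strand) had 0.0631 and 0.253 normalized FPK in low-MYC cells, was listed at 0 in high-MYC replicate 1 and had 0.800 in high-MYC replicate 2. The groups overlapped, and its log2 fold change of 0.32 (SE 1.05, limma adjusted p = 0.771) changed sign with the pseudocount and with the libraries used. The depth of the libraries is unknown, so no limit can be set on the value listed at 0.

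**Figure D2:**
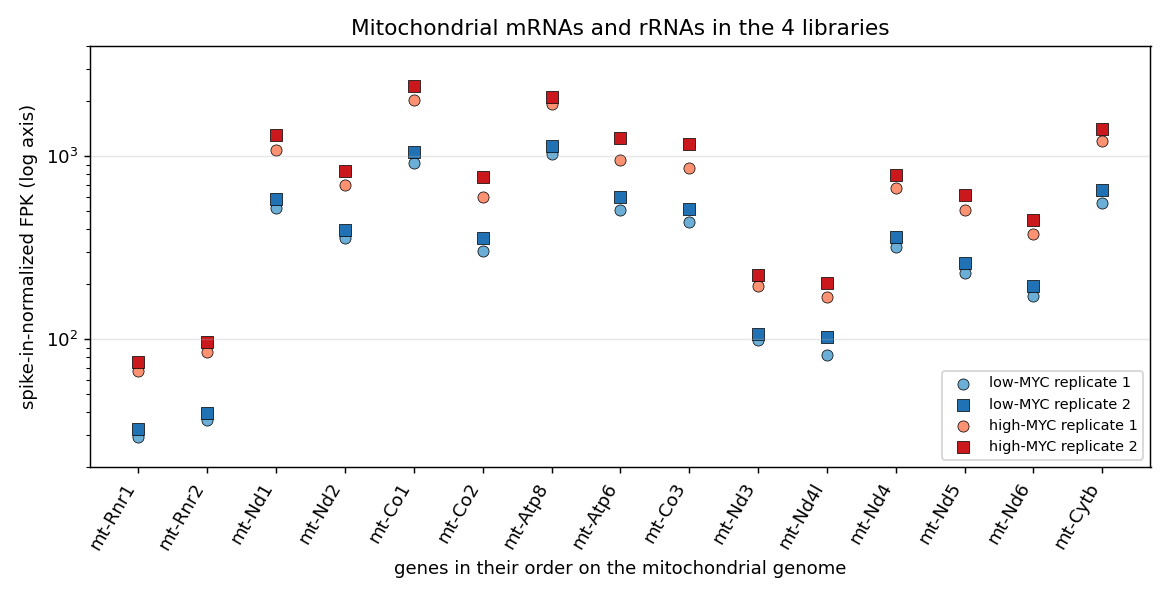
Normalized FPK on a log axis for the 13 mRNAs and 2 rRNAs, in their order on the mitochondrial genome, with 1 point for each of the 4 libraries; mt-Ts1, listed at 0 in 1 library, is left out. For all 15 genes both high-MYC points lie above both low-MYC points, and in each library the rRNAs lie below the mRNAs.

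The order of the mRNA levels was much the same in both groups, and 9 of 13 mRNAs had the same rank among the mRNAs. mt-Co1 and mt-Atp8 led, and their libraries overlapped in both groups. Of 14 pairs of neighbours in the order of mRNAs and rRNAs, 6 overlapped among the low-MYC and 8 among the high-MYC libraries. The neighbours mt-Nd2 and mt-Nd4, mt-Nd4 and mt-Co2, and mt-Nd3 and mt-Nd4l overlapped in both groups. Among all genes of the table mt-Atp8 ranked 2 and mt-Co1 ranked 3 in low-MYC cells, and mt-Co1 ranked 2 and mt-Atp8 ranked 4 in high-MYC cells.

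The gene above them was not annotated as mitochondrial. Gm28437, a pseudogene on chromosome 1, had the highest mean of the table, with 1089 and 1194 normalized FPK in low-MYC and 2468 and 2722 in high-MYC cells. It is a copy of mt-Co3, and lies in a nuclear insertion of mitochondrial sequence at chr1:24611535-24616188 on the minus strand of mm10. Aligned with BLAST, this insertion matched bases 6390 to 11042 of the mitochondrial genome over 4654 positions with 2 mismatches and 1 gap, an identity of 99.9%.

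Annotated pseudogenes in the insertion are copies of 7 mitochondrial mRNAs with an identity of at least 99%. The matched bases also hold all of mt-Atp8 and mt-Ts1, for which no pseudogene was listed, so no signal could be added to them. Those of mt-Atp6, mt-Co2, mt-Co3, mt-Nd3 and mt-Nd4l cover nearly the whole gene, and those of mt-Nd4 and mt-Co1 cover 63.6% and 31.3% of it. Over 345 aligned bases mt-Nd3 and its copy Gm28438 differ in 1, the substitution T3C, counted from the first base of mt-Nd3. The first 29 bases of both are shown with this base in capitals, from chrM:9459-9487 on the plus strand and chr1:24613091-24613119 on the minus strand.
mt-Nd3: atTaacctgtacactgttatcttcattaa
Gm28438: atCaacctgtacactgttatcttcattaa

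A read from such a gene has no unique place, and the expectation-maximization step the authors used divides it between the copies. The 5 copies of nearly whole length held between 55.6% and 74.4% of the signal of their pair, depending on gene and library, whereas the copies of mt-Nd4 and mt-Co1 held between 0.734% and 3.44%. The copies rose alongside the mitochondrial genes, 7 of 7 by limma at adjusted p under 0.01 beside 97.1% of all genes, with log2 fold changes from 1.03 for Gm10222 to 1.18 for Gm28437, and none passed relative to the median nuclear gene, beside 2.29% of all genes. Of the RNA of the 5 genes with whole-length copies, the part from mitochondria and the part from the nucleus cannot be told apart in these values. By contrast, 4 pseudogenes elsewhere in the genome with an identity of 95.2% to 97.6% had mean levels from 0.0317 to 1.35 normalized FPK.

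When the signal of each copy was added to its mitochondrial gene, per kilobase of that gene, the levels of the 5 genes rose by 2.37-fold for mt-Atp6 to 3.66-fold for mt-Nd3. mt-Co3 then had 1523 and 1706 in low-MYC and 3322 and 3877 in high-MYC cells and moved from rank 6 to rank 1 of the mRNAs. mt-Nd3 had 354 and 378 against 765 and 799, and moved from rank 12 to rank 8. mt-Nd4l moved from rank 13 to rank 11, and mt-Nd6 was then the lowest mRNA. The mRNAs ranged over 11.5-fold from highest to lowest as listed and over 8.73-fold with the copies added. The ratio between the groups moved little, with a combined log2 fold change of 1.02 for mt-Atp6, 1.08 for mt-Co2, 1.15 for mt-Co3, 1.10 for mt-Nd3 and 1.02 for mt-Nd4l. With the copies the mitochondrial share was 18.3% and 19.7% in low-MYC and 17.2% and 18.8% in high-MYC libraries.

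**Figure D3:**
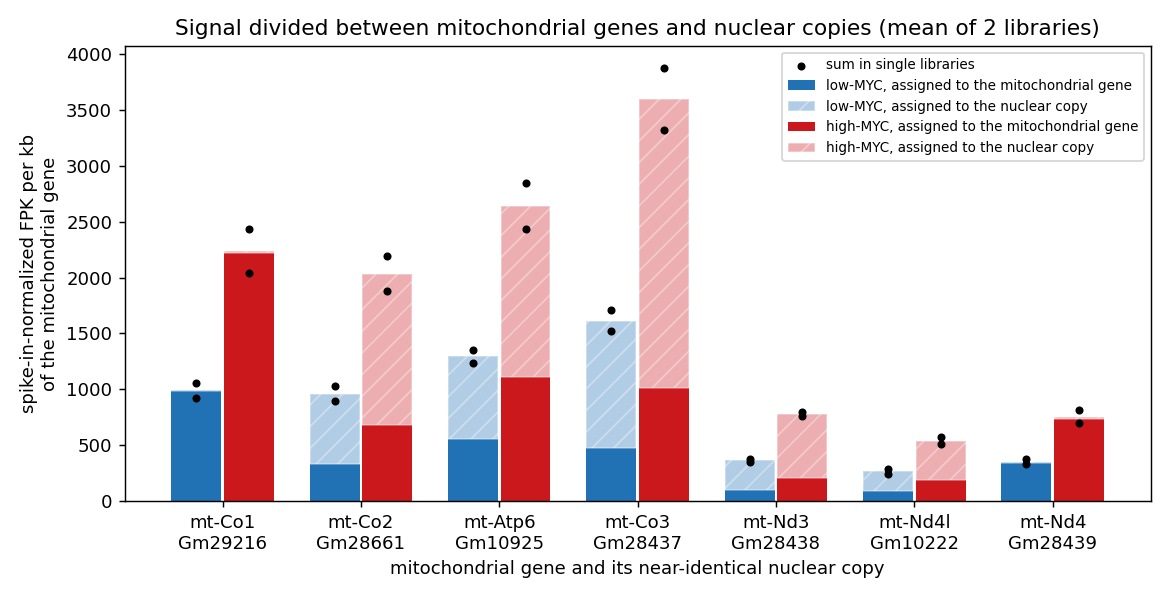
Mean normalized FPK per kilobase of the mitochondrial gene for the 7 mRNAs with an annotated near-identical nuclear copy. Stacked bars from 0 are shown for low-MYC (blue) and high-MYC (red) cells. The solid part was assigned to the mitochondrial gene, the hatched part to the copy, and points are the sums in single libraries. The copies hold more than the named gene for mt-Co2, mt-Atp6, mt-Co3, mt-Nd3 and mt-Nd4l, and at most 3.44% for mt-Co1 and mt-Nd4.

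Since nearly the whole table rose, each library was also rescaled to the same median nuclear gene, to ask whether mitochondrial RNA changed unlike nuclear RNA. On the spike-in scale the median log2 fold change was 1.08 for the 13 mRNAs, 1.24 for the 2 rRNAs and 1.03 for 11854 nuclear genes, of which 5% lay below 0.59 and 5% above 1.35. The pseudocount lowers the fold change of low genes, and as a plain ratio of means the mRNAs had a median of 2.12 (from 1.87 for mt-Atp8 to 2.28 for mt-Nd5), the rRNAs 2.36 and the nuclear genes 2.26. The 90 nuclear protein-coding genes with a mean of at least 100, which are closest in level to the mRNAs, had a median ratio of 2.23.

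Relative to the median nuclear gene 12 of 13 mRNAs had a log2 fold change below 0, beside 6077 of 11870 genes tested. The median of the mRNAs was -0.10. The mRNAs also shifted together between technical replicates, as given further on, so the 12 are not separate results. Both rRNAs were above 0, with 0.09 for mt-Rnr2 and 0.03 for mt-Rnr1. None of the 16 genes passed adjusted p under 0.01 by limma, whereas 2.29% of all genes did, 1.76% as higher and 0.531% as lower. At an unadjusted p under 0.05, 1 of 16 passed, beside 33.2% of all genes. This was mt-Atp8, with a relative log2 fold change of -0.27 (SE 0.0551, limma adjusted p = 0.0532). The next lowest mRNAs were mt-Atp6 with -0.19 (SE 0.137), mt-Nd2 with -0.17 (SE 0.0750) and mt-Nd4l with -0.16 (SE 0.115). mt-Co1, mt-Nd6 and mt-Nd5 were near the median nuclear gene, with -0.01, -0.01 and 0.01. A difference several times its SE, as for mt-Atp8, did not pass with 4 libraries, so the absence of calls does not exclude shifts of that size.

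**Figure D4:**
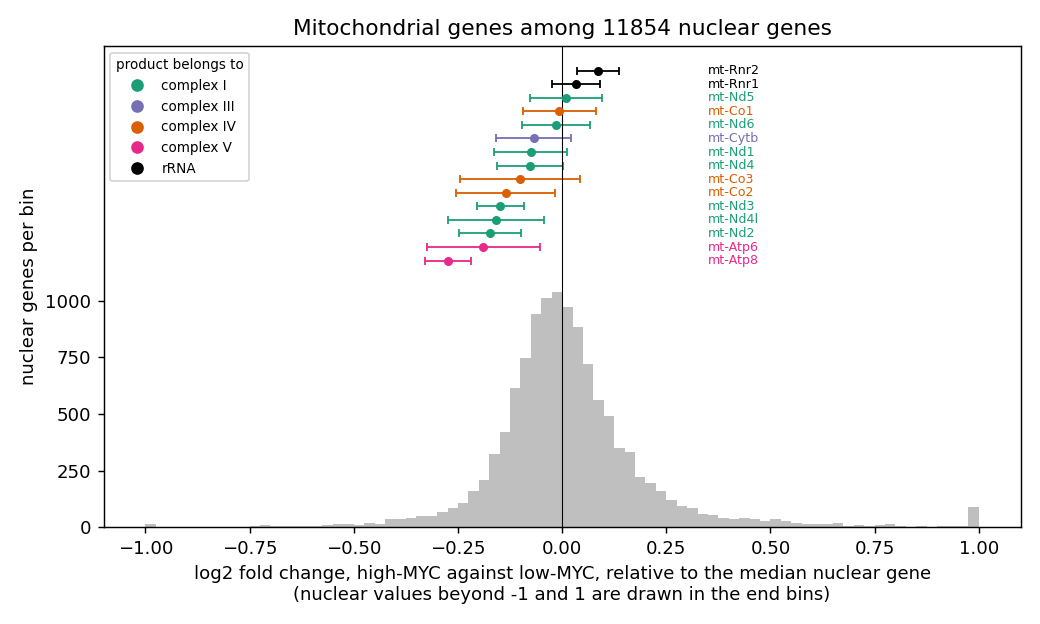
Log2 fold change, high-MYC against low-MYC, relative to the median nuclear gene; the grey histogram counts 11854 nuclear genes per bin and the points above it, at heights without meaning, are 15 mitochondrial genes with their SE (mt-Ts1 is left out). The mRNAs lie from -0.27 for mt-Atp8 to 0.01 for mt-Nd5 and the rRNAs at 0.03 and 0.09; only mt-Atp8 lies below -0.23, the value under which 5% of the nuclear genes fall.

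The libraries numbered 2 held more mitochondrial RNA than those numbered 1 in both groups. The ratio of replicate 2 to replicate 1 had a median over the mRNAs of 1.14 for low-MYC and 1.19 for high-MYC libraries, against 1.02 and 1.06 for nuclear genes. It ranged from 1.08 for mt-Nd3 to 1.24 for mt-Nd4l in low-MYC cells and from 1.10 for mt-Atp8 to 1.35 for mt-Co3 in high-MYC cells. All ratios in this paragraph are for values as listed. For genes with near-identical copies, the part assigned to the copy was lower in replicate 2, so their ratios also depend on this division. With the copies added, mt-Co3 had 3322 and 3877 in high-MYC replicates 1 and 2, beside 857 and 1159 as listed. In the 4 libraries the geometric mean of the mRNAs, divided by the nuclear median and scaled to 1 over all, was 0.981 and 1.10 in low-MYC and 0.903 and 1.03 in high-MYC cells. These values overlapped between the groups. High-MYC over low-MYC, the quotient was 0.927 over all libraries, 0.921 between replicates 1 and 0.934 between replicates 2, but 0.822 for high-MYC replicate 1 over low-MYC replicate 2 and 1.05 for high-MYC replicate 2 over low-MYC replicate 1. The technical replicates differed by 1.12-fold for low-MYC and 1.14-fold for high-MYC on the same measure, which was more than the groups did.

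**Figure D5:**
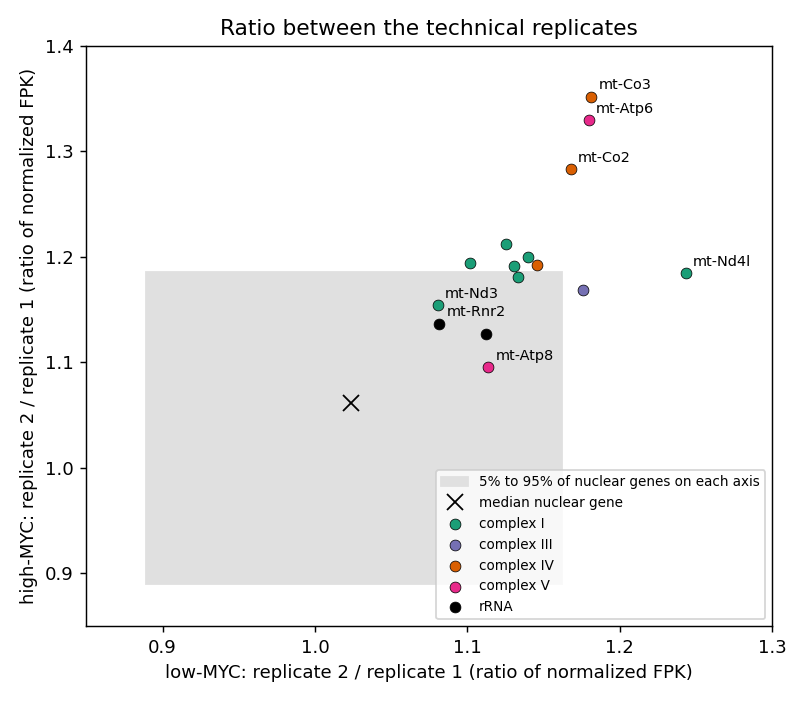
Ratio of normalized FPK in replicate 2 to replicate 1, low-MYC on the x axis and high-MYC on the y axis, for 15 mitochondrial genes coloured by the complex or rRNA class they belong to (mt-Ts1 is left out); the grey box spans 5% to 95% of nuclear genes on each axis and the cross is the median nuclear gene at 1.02 and 1.06. With values as listed, without the signal of the nuclear copies, all 15 genes lie above and to the right of the cross, with mt-Co3 at 1.18 and 1.35.

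A scale made from the mitochondrial mRNAs themselves needs no spike-in and was used to compare the classes of mitochondrial RNA. mt-Rnr2 had 10.8% and 10.2% of the geometric mean of the mRNAs in low-MYC and 12.4% and 11.7% in high-MYC libraries, and mt-Rnr1 had 8.67% and 8.41% against 9.76% and 9.10%. The groups did not overlap for either rRNA, but the share of all genes without overlap on this scale was not computed, so this is a description. The log2 fold changes on this scale, 0.19 for mt-Rnr2 (SE 0.164, limma adjusted p = 0.839) and 0.14 for mt-Rnr1 (SE 0.166, limma adjusted p = 0.937), did not pass the test. None of the 16 genes passed, beside 3.82% of all genes (3.36% higher and 0.455% lower), and 1 of 16, mt-Ts1, had an unadjusted p under 0.05, beside 11.8% of all genes. The 13 mRNAs set this scale, so their own values are only differences among themselves and were held near 0. Both counts are therefore descriptions. The fit gave each gene here the spread shared by genes of its level and not that of its own libraries, for mt-Ts1 an SE of 0.135, so that these p-values say little about the rRNAs.

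The proteins that make and keep mitochondrial RNA are nuclear encoded, and their mRNAs rose with the rest. From 4 lists of genes for mitochondrial DNA transcription, DNA replication, RNA processing and stability, and RNA modification, 67 of 74 genes could be tested, and 67 of 67 rose by limma at adjusted p under 0.01, beside 97.1% of all genes. Their median ratio of means was 2.16, close to the 2.12 of the mitochondrial mRNAs. Relative to the median nuclear gene none of the 67 passed the adjusted threshold, beside 2.29% of all genes, and their median log2 fold change was -0.06.

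Polrmt, the mitochondrial RNA polymerase, had 0.891 and 0.854 normalized FPK in low-MYC and 2.08 and 1.91 in high-MYC cells, a log2 fold change of 1.11. Tfam, which packages mitochondrial DNA and starts its transcription, had 1.01 and 1.06 against 2.19 and 2.38, a log2 fold change of 1.07. Tfb2m, the other initiation factor, changed by 0.95, the elongation factor Tefm by 0.92 and Mterf1a, a termination factor, by 1.07. In the transcription list the highest log2 fold change was 1.15 for Mrpl12 and the lowest 0.78 for Mterf2. Mterf2 was low, with 0.277 and 0.280 against 0.531 and 0.574, and the pseudocount of 0.1 lowers its log2 value. As a ratio of means it had 1.98, beside 2.24 for Mrpl12.

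Lrpprc and Slirp form a complex that stabilizes mitochondrial mRNAs and supports their polyadenylation. Lrpprc had 0.400 and 0.415 against 0.838 and 0.919 normalized FPK, a log2 fold change of 0.95, and Slirp had 1.77 and 1.86 against 3.61 and 3.89, with 1.01. In the processing list the values ran from 0.77 for Fastkd1 to 1.23 for Fastk, and in the modification list from 0.58 for Osgepl1 to 1.10 for Mrm1. Polg, the DNA polymerase, changed by 1.01, the helicase Twnk by 0.96 and the single-stranded DNA binding protein Ssbp1 by 0.98, within a replication list that ran from 0.65 for Primpol to 1.32 for Fen1.

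The respiratory complexes join mitochondrial and nuclear subunits. Of 73 nuclear subunits of complexes I, III, IV and V, 72 could be tested, and 72 of 72 rose by limma at adjusted p under 0.01, beside 97.1% of all genes. None of them passed relative to the median nuclear gene, beside 2.29% of all genes, and on that scale their median log2 fold change was -0.02. The median ratio of means was 2.25 for the nuclear and 2.15 for the mitochondrial subunits of complex I, 2.18 and 2.16 (mt-Cytb alone) for complex III, 2.23 and 2.12 for complex IV, and 2.24 and 1.93 for complex V. The mitochondrial medians use values as listed. With the copies added, the ratios of complex IV were 2.25 for mt-Co1, 2.11 for mt-Co2 and 2.23 for mt-Co3. In complex V, mt-Atp6 then had 2.04. These are descriptions, and the difference between the nuclear and mitochondrial members of a complex was not tested. In log2(value + 0.1) complex I ran from 0.89 for Ndufs4 to 1.23 for Ndufa7, and complex III from 1.05 for Uqcrb to 1.19 for Uqcrh. Complex IV ran from 1.04 for Cox5a to 1.21 for Cox6c, and complex V from 0.86 for Atp5o to 1.23 for Atp5e. The pseudocount lowers these values for genes with low levels, among them Ndufs4 and Atp5o, whose ratios of means were 2.21 and 2.15.

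The sorted groups were not alike in cell type markers. Of 15 macrophage markers 11 could be tested and 11 of 11 rose by limma on the spike-in scale, beside 97.1% of all genes. Relative to the median nuclear gene 11 of 11 were also higher, beside 1.76% of all genes. A gene was tested if its mean over the 4 libraries was at least 0.1. A marker near 0 in low-MYC cells, such as Cd53 with 0.0180 and 0.0198 against 0.190 and 0.210, could pass only through its high-MYC values. The direction of such a marker was fixed in advance, so both counts are descriptions. The summed level of all 15 macrophage markers was 0.644 and 0.891 normalized FPK in low-MYC and 28.4 and 29.7 in high-MYC libraries. On the log2(value + 0.1) scale Lyz2 had the largest change, 6.71, and Cd53 the smallest, 1.33. The pseudocount lowers such values for genes near 0. As plain ratios of means Lyz2 had 214 and Cd53 10.6, and the 11 markers ran from 7.43 to 724. Of 12 fibroblast markers 12 rose on the spike-in scale, from 0.87 for Postn to 2.43 for Lum, and 3 of 12 were higher relative to the median nuclear gene, where Postn had -0.29. The summed level of the fibroblast markers was 402 and 409 against 980 and 1010. More cells of a type and more RNA in each cell cannot be told apart in bulk RNA, and the part of the macrophage markers' cells in the mitochondrial values was not tested.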

How the data were processed

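The 4 RNA-seq libraries of low-MYC and high-MYC MEFs were analysed. Per the study's methods the authors made TruSeq Stranded mRNA libraries, aligned reads to the mm10 transcriptome with TopHat and quantified them in Partek Flow. The deposited values are a signal, FPK divided by a score from spike-in RNAs; they are not counts, and the depth is unknown.

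Genes with a mean of at least 0.1 were tested on log2(value + 0.1) with limma 3.58.1 in R 4.3.3 (eBayes with trend, Benjamini-Hochberg over all genes tested, called at adjusted p under 0.01), on the deposited scale and after rescaling to the median nuclear gene or to the mitochondrial mRNAs. Mitochondrial sequence was aligned to GENCODE M21 transcripts and the genome with BLAST+ 2.17.0. Tables were handled with Python 3.11.15 and pandas 2.3.3.

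Every mt- gene was named, together with 10 chosen nuclear genes and the highest and lowest member of each list. Pseudogenes were described through their alignment. Members and lists were chosen with earlier results of these data known. Alternatives changed the pseudocount, filter, trend, scaling, replicate block and libraries used. The chromatin accessibility and ChIP-seq files were not used.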

Additional observations from a re-analysis of the deposited data

How the results depend on the processing

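The rise of the mitochondrial genes rests on the spike-in scale. With the summed nuclear value set equal in all libraries, the number that rose went from 15 to 0, and the number at least 2-fold higher from 13 to 0. The log2 fold change was then -0.188 for mt-Atp6, -0.273 for mt-Atp8, -0.0059 for mt-Co1, -0.135 for mt-Co2, -0.101 for mt-Co3, -0.0678 for mt-Cytb, -0.075 for mt-Nd1, -0.173 for mt-Nd2, -0.148 for mt-Nd3, -0.0761 for mt-Nd4, -0.159 for mt-Nd4l, -0.0139 for mt-Nd6 and -0.293 for mt-Ts1. It stayed above 0 for mt-Nd5 with 0.0099, mt-Rnr1 with 0.0346 and mt-Rnr2 with 0.0864. Apart from this scaling, and from mt-Atp6 and mt-Co3 without a filter on low values (13 called; adjusted p = 0.0151 and 0.0127 by limma), the 13 mRNAs and 2 rRNAs stayed called on the spike-in scale under every alternative run. With 1 library left out the number at least 2-fold higher ran from 5 (without high-MYC replicate 2) to 14, with 7 without low-MYC replicate 1; a lone library was assumed to vary like the others.

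Relative to the median nuclear gene, 0 genes were called under every alternative run, and values near 0 changed sign. That of mt-Nd5 was -0.0038 when scaled to the upper quartile and -0.0145 with the 1000 highest nuclear genes. With 1 library left out the lowest and highest values were -0.0887 and 0.0756 for mt-Co1, -0.275 and 0.0706 for mt-Co3, -0.169 and 0.0319 for mt-Cytb, -0.170 and 0.0188 for mt-Nd1, -0.0773 and 0.0958 for mt-Nd5, -0.0959 and 0.0669 for mt-Nd6, -0.0258 and 0.0938 for mt-Rnr1 and -1.61 and 1.01 for mt-Ts1. The median of the mRNAs ran from -0.21 (without high-MYC replicate 2) to -0.00099 (without high-MYC replicate 1).

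Relative to the mitochondrial mRNAs, the lowest and highest values with 1 library left out were -0.0693 and 0.0165 for mt-Co2, -0.0739 and 0.0873 for mt-Co3, -0.0829 and 0.0031 for mt-Nd3, -0.109 and 0.0071 for mt-Nd4l and -1.56 and 1.03 for mt-Ts1. With the copies added, an alternative chosen after seeing the data, that of mt-Nd3 was 0.0094. mt-Ts1 had the only calls on this scale. It was called lower, 1 gene, at a pseudocount of 0.01 (-1.44), without low-MYC replicate 1 and without high-MYC replicate 2, and higher, 1 gene, without high-MYC replicate 1. At a pseudocount of 1 its value was 0.0141, and 0.0036 relative to the median nuclear gene. On the spike-in scale it was -0.623 at a pseudocount of 0.01 and ran from -1.26 to 1.91 with 1 library left out; without low-MYC replicate 2 it was called higher (0.88, adjusted p = 9.16e-10 by limma), which made 16 of 16. A minimum mean of 1 removed mt-Ts1.

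With the replicate number as a block, 15 genes were called on the spike-in scale, 13 of them at least 2-fold higher, and 0 on both relative scales, where 7 and 4 genes had an unadjusted p under 0.05. Without the block, 33.2% and 11.8% of all genes had such a p on these scales. The shares of all genes with the block are not given here, so these counts are descriptions. Relative to the mitochondrial mRNAs the adjusted p of mt-Rnr2 by limma was 0.0328 with the block, and from 0.570 to 1.00 under the other alternatives. With only 2 numbers, and a correlation of 0.0810 between the replicate deviations of the groups over 11870 genes, the libraries share a number and are not shown to be pairs. The difference in mitochondrial share ran from -1.57 to -0.0907 percentage points with 1 library left out.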

Other observations

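The table also listed 1 nuclear rRNA at a high level, CT010467.1 on chromosome 17, which was chosen after its values were seen. It had 148 and 154 normalized FPK in low-MYC and 685 and 670 in high-MYC libraries. The ratio of the group means was 4.49, beside 2.32 for mt-Rnr1 and 2.40 for mt-Rnr2. Relative to the median nuclear gene its log2 fold change was 0.99 (SE 0.0515, limma adjusted p = 0.00434), higher in 2 of 2 high-MYC libraries.

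The pseudogene list held 11 genes, of which 9 were tested and 9 rose by limma at adjusted p under 0.01, beside 97.1% of all genes, with a median log2 fold change of 1.10. None passed relative to the median nuclear gene, beside 2.29% of all genes. Gm10288, which is on the list, had no match to the mitochondrial genome, with 34.9 and 33.5 normalized FPK in low-MYC and 72.6 and 85.1 in high-MYC cells. Gm13340, a copy of mt-Co1 over its whole length with 37 mismatches, had 0.657 and 0.905 against 2.02 and 1.82.

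The share of the copies in a pair was lower in replicate 2 than in replicate 1 in both groups for all 7 pairs. For mt-Co3 it was 71.4% and 69.9% in low-MYC and 74.2% and 70.1% in high-MYC libraries, and for mt-Atp6 58.9% and 55.7% against 61.0% and 55.6%.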
